A study of Mus musculus with 24 samples.

Results

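This account follows 45 genes of the interferon response and of MHC class I antigen presentation, chosen as a list of gene symbols, out of 53392 genes in the quantified transcriptome. All 45 symbols were found. They comprise 18 interferon-induced antiviral effectors, 2 cytosolic RNA sensors, 5 transcription factors of the response, 10 interferon-induced GTPases and 10 genes of MHC class I chains, peptide supply and their coactivator. The libraries were polyadenylated RNA from kidneys of FVB mice, an inbred laboratory strain, of both sexes. The controls were uninjured sham animals, and the injured animals had ischemic acute kidney injury. No genotype, transgene or drug is recorded for any group, and the ages and the time from injury to tissue collection are not given in the sources used here. After enzymatic digestion of the kidney, proximal tubules were picked by microdissection and endothelial isolates were drawn out with CD31 microbeads (CD31 is encoded by Pecam1). Sham or injured, female or male and tubule or endothelial isolate gave 8 groups, which held 3 libraries each, except 2 for the sham female endothelial isolates. Sham male tubule replicate 3 is the sum of 2 technical libraries. Replicates of a group were taken as separate mice, as the labelled protocol describes 3 animals of each sex per group.

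Interferons are secreted proteins that cells release on sensing foreign or misplaced nucleic acid (types I and III) or that activated lymphocytes release (type II, Ifng). Their receptors act through Janus kinases. Type I signals assemble a complex that includes Stat2 and Irf9 and binds the interferon-stimulated response element (ISRE), and type II signals act through the gamma-activated site (GAS). The induced genes block viral replication, destroy pathogen compartments and raise peptide presentation to T cells. In the kidney, tubule cells carry MHC class I at rest and tubule and endothelial cells can both answer interferon.

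Promoters of some members that hold at least 1 of the 2 elements are shown first, because the members differ in which they carry. Isg15 and B2m are among them, though edgeR called neither in any comparison as fitted. H2-K1, H2-D1, Tap1 and Tapbp, which were called between the sexes, held neither element in the promoters searched and are not shown. RefSeq promoters (250 bases before to 50 after each gene start, build GRCm38.p6) were found for 36 of the 45 members. The ISRE was searched as GAAA, any 2 bases and GAAA, and the GAS as TTC, any 3 bases and GAA, on both strands, the latter being its own reverse complement. Each line below gives the 140 bases before the gene start, 5′ to 3′ on the gene's strand, with the matches of both elements in capitals. The first 5 hold an ISRE match (on the other strand in Rsad2), Igtp also holds a GAS match upstream of it, and the last 2 hold a GAS match.
Isg15, chr4:156200819-156200958, minus strand: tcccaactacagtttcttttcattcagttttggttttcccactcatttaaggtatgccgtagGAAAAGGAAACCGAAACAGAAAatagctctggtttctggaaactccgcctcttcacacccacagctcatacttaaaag
Rsad2, chr12:26456453-26456592, minus strand: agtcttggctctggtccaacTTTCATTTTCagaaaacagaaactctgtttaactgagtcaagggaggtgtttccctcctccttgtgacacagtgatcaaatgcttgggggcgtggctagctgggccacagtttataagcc
Irgm1, chr11:48871421-48871560, minus strand: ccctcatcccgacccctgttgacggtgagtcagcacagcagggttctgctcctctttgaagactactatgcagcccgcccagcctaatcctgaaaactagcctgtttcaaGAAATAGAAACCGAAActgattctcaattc
Igtp, chr11:58199416-58199555, plus strand: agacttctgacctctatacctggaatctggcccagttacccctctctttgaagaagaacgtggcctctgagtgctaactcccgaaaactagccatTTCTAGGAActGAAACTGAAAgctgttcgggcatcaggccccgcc
B2m, chr2:122147547-122147686, plus strand: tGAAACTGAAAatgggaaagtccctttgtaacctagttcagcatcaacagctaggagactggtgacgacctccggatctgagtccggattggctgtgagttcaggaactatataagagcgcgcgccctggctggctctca
Irf1, chr11:53769874-53770013, plus strand: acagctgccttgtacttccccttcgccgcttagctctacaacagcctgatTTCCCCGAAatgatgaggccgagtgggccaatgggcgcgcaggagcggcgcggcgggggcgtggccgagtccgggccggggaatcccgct
Psmb8, chr17:34198055-34198194, plus strand: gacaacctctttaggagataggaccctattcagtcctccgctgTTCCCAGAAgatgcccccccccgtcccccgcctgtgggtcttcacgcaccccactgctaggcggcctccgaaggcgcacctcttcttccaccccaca

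Over the whole windows, 18 of the 36 members (50%) held the ISRE letters, against 3.99% of all 27025 genes and 3.44% of all 32851 promoters in the table. The GAS letters were in 12 of 36 (33.3%), against 9.55% of all genes and 8.3% of all promoters. By role, ISRE letters lay in 7 of 14 antiviral effectors, 2 of 2 RNA sensors, 1 of 5 factors, 7 of 7 GTPases and 1 of 8 MHC class I genes. GAS letters lay in 5, 0, 2, 4 and 1 of the same genes. In Isg15, 3 overlapping ISRE matches began 78 bases before the start, and the 2 GTPases Irgm1 and Igtp carried matches 30 and 34 bases before theirs. These matches are letters in a reference window of the C57BL/6J strain, not measured binding.

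**Figure D1:**
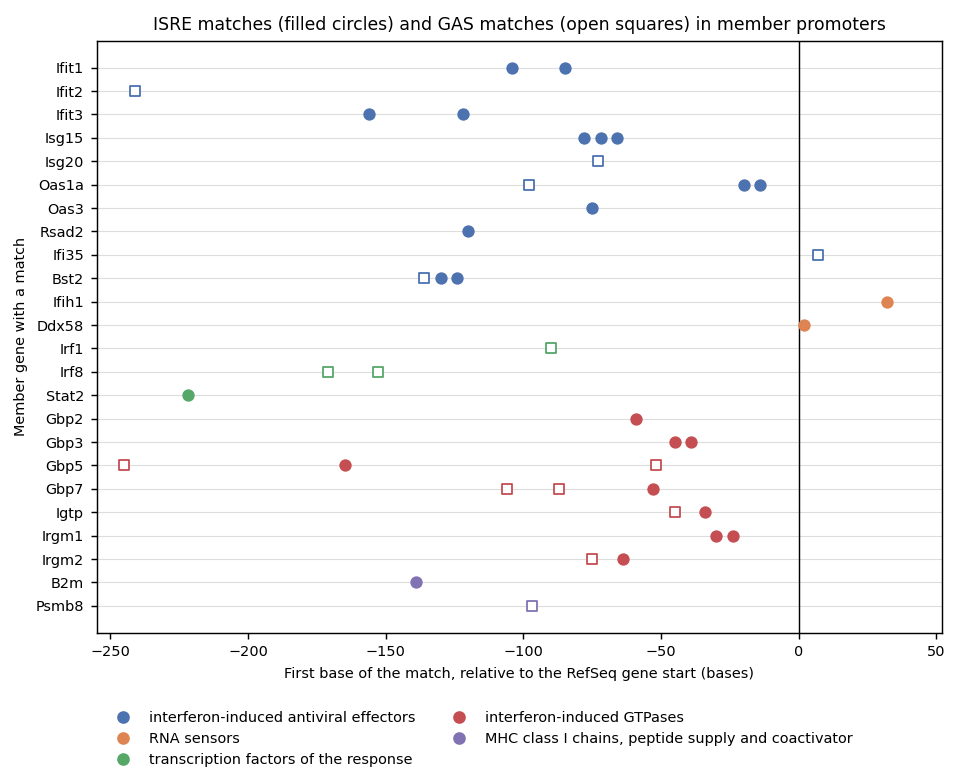
Position of each match in member promoters (x axis, first base of the match in bases from the RefSeq gene start, 0 being the start), 1 row per member that has a match, coloured by role. Filled circles are ISRE and open squares GAS matches, and every one of the 7 GTPases with a promoter in the table has a filled circle.

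Depth ran from 32592517 to 54906972 estimated reads per library, with mitochondrial transcripts at 7.06 to 16.2%. Levels are given as CPM, the count scaled to the normalized size of the library within its isolation. Across 14112 genes, injured male tubule replicates 1 and 2 correlated with each other at 0.988 (Pearson's r of log2 CPM) and with injured male tubule replicate 3 at 0.906 and 0.920. They correlated with injured male endothelial replicate 2 at 0.955 and 0.937, while that library correlated with the other injured male endothelial libraries at 0.874 and 0.882, which correlated with each other at 0.989. Endothelial replicate 2 and tubule replicate 2 share the number 4 in their titles. Tubule replicate 1 shares the number 3 with endothelial replicate 1, which did not stand apart, so member calls on injured males are given with and without these libraries. For genes outside the members the fits without them are not given. Markers bore out the labelled cell types only in part. The summed level of 10 endothelial markers was 509 to 2138 CPM in endothelial isolates and 161 to 434 CPM in tubules, but 6 thick limb and distal markers summed to 8162 to 16069 CPM in the endothelial isolates and 10 proximal markers to 6392 to 20428 CPM. In such bulk samples, fewer cells of a type and less RNA per cell cannot be told apart.

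Per unit of transcript length (TPM), the class I light chain B2m was the most abundant member in sham female tubules, with 246 ± 39.3 TPM (SD), followed by the class I heavy chains H2-D1 with 138 ± 18.4 and H2-K1 with 47.3 ± 6.69. In injured male tubules the order was reversed at the top, with 623 ± 312 TPM for H2-D1 and 271 ± 41.3 for B2m, although these spreads overlap. H2-K1 and B2m there, at 275 ± 140 and 271 ± 41.3 TPM, did not differ beyond their spread. Of the 18 antiviral effectors, 11 had a mean under 3 TPM in all 8 groups, among them Ifit1, Isg20, Mx2, Oas1a, Oas2 and Oasl2. The other 7 reached that level in at least 1 group. Bst2 was above it in every group and reached 22.1 TPM in injured male endothelial isolates, and Rsad2 reached 11.9 TPM in injured male tubules and 7.92 TPM in injured male endothelial isolates. Mx1 and Oas3 were too low to test in tubules, and Mx1 in endothelial isolates.

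**Figure D2:**
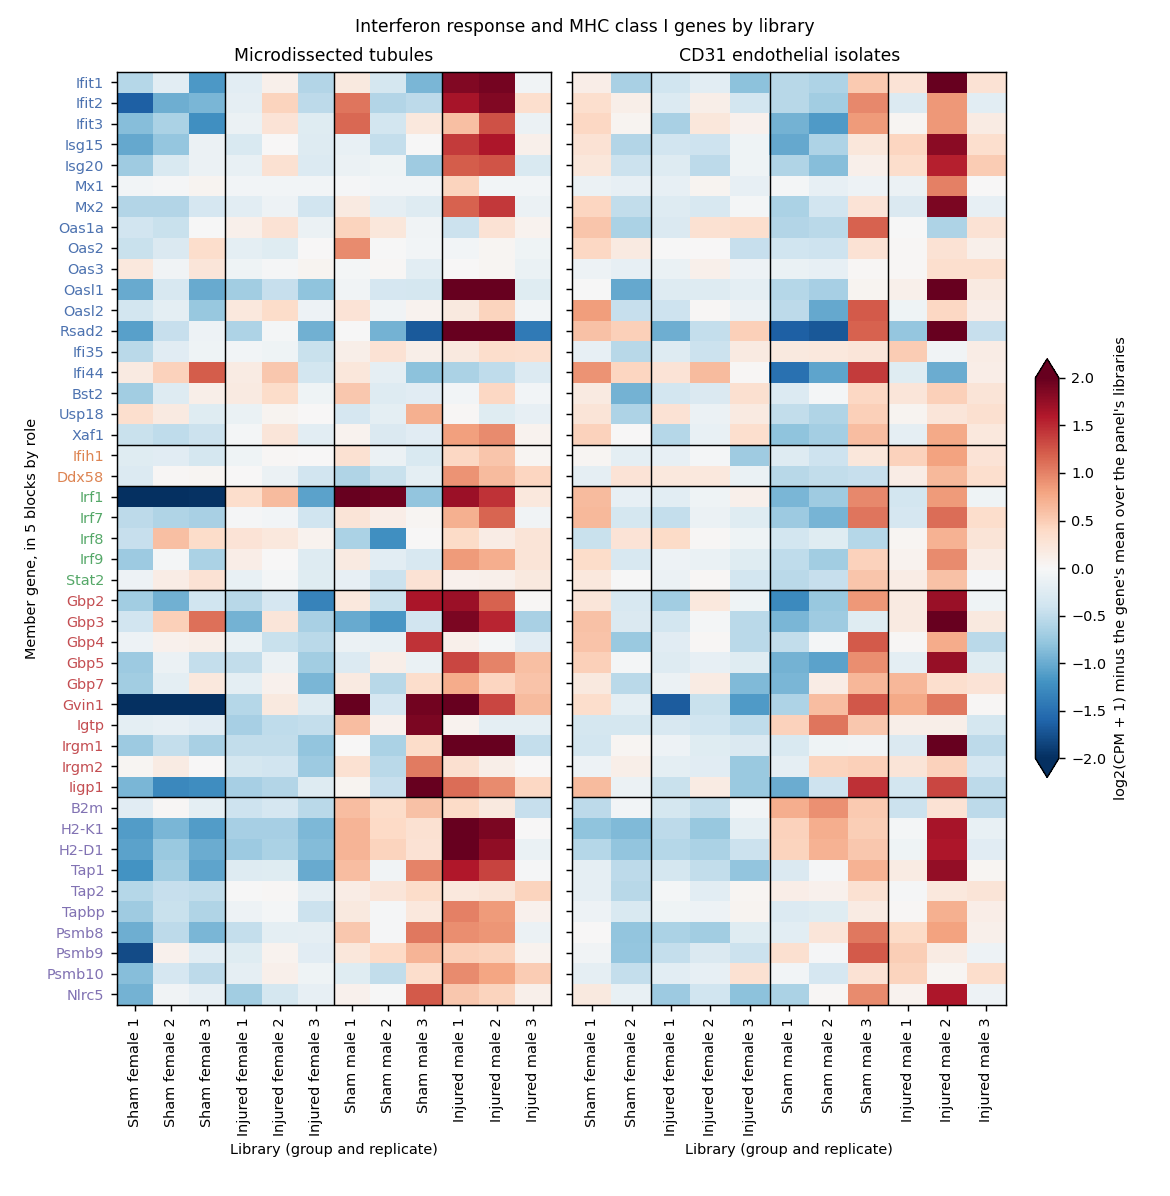
Levels of all 45 members (rows, in 5 role blocks) in each library (columns), as log2(CPM + 1) minus the gene's mean over the libraries of that panel, red above and blue below the mean. Injured male tubule replicates 1 and 2 and injured male endothelial replicate 2 are the reddest columns, with Rsad2 at 132, 125 and 126 CPM and Irgm1 at 283, 250 and 215 CPM.

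In male tubules, injury raised Rsad2, Ddx58, Gbp3, Irgm1 and Psmb10 and lowered Igtp. The other 37 of the 43 tested members did not pass the test. These 5 rises and 1 fall compare with 19% of all 18369 genes called in either direction, 10.6% of them higher and 8.43% lower. The median log2 change was 0.44 over the members and -0.03 over all genes, and 9 members did not overlap between the groups, against 30.8% of all genes. Without injured male tubule replicates 1 and 2, which leaves 1 injured library assumed to vary like the other groups, 1 member was called, B2m, which was lower in that injured male than in sham males (-0.98, adjusted p = 0.00755), and Rsad2 and Irgm1 changed sign. The count was 1 without replicate 1 or without replicate 2, 17 without replicate 3, and 0 when only the 2 groups compared entered the fit. Markers of other tubule segments moved alongside. The 6 thick limb and distal markers summed to 3146, 1903 and 1373 CPM in sham males and 5028, 5029 and 1971 CPM in injured males, and to 1609 to 1961 CPM in sham and 5234 to 7009 CPM in injured females. The 10 proximal markers summed to 18042 to 21074 CPM in sham and 8568 to 11169 CPM in injured males, and to 15757 to 18951 and 12810 to 15265 CPM in the females. None of these 16 markers was at 0 in any tubule library, and their part in the member changes was not tested.

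In female tubules, no member passed the test with edgeR, against 2 of all genes (0.0109%). At an unadjusted p under 0.05 there were 7 members, and DESeq2 called Irf1, Gvin1 and Tap2, all higher. No share of all genes is given, here or below, for counts at an unadjusted p or from the DESeq2 fit run here. The median log2 change was 0.40 over the members and 0.00 over all genes. Of the 43 tested members, 18 did not overlap between sham and injured females, against 27.1% of all genes.

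Between the sexes the members leaned to males. In sham tubules, Irf1, Gvin1, Iigp1, Tap1, Tap2, H2-K1 and Psmb8 were higher in males and none was higher in females, against 5.8% of all genes called either way and 3.24% called higher in males. The median male minus female difference was 0.83 on the log2 scale over the 43 tested members and 0.01 over all genes. In injured tubules, 11 members were higher in males and none in females, with 23.3% of all genes called either way and 12.8% higher in males, and medians of 0.96 and -0.06. The comparisons share the same injured and sham libraries and do not stand for independent counts. Leaving out an injured library acts on the sham comparison mainly through the spread shared by all groups, as that library is not in it. Without injured male replicates 1 and 2, 13 members were called between sham males and females and 1, H2-K1, between injured males and females.

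**Figure D3:**
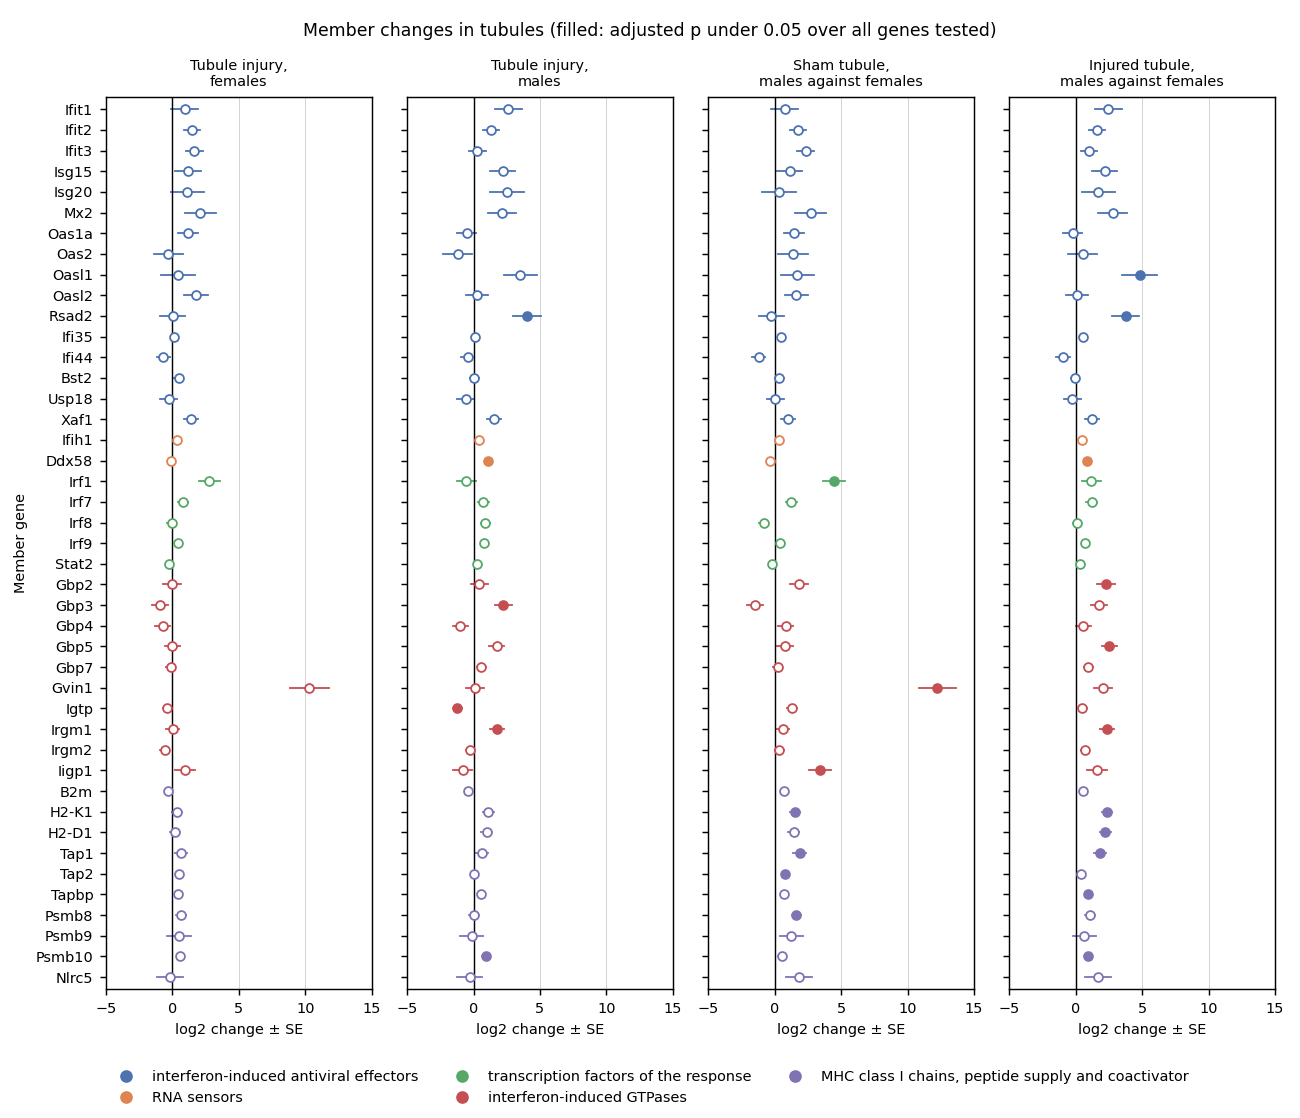
Log2 change ± SE (x axis) of each tested member (y axis, coloured by role) in the 4 tubule comparisons, filled where the adjusted p over all genes was under 0.05. Filled points number 0 for injury in females, 6 for injury in males, 7 between sham sexes and 11 between injured sexes, and Gvin1 lies at 12.25 between sham sexes.

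In endothelial isolates no member passed the test in any of the 4 comparisons within the isolation. With injury in males, 0 of 44 tested members were called against 0.864% of all 19910 genes, 10 had an unadjusted p under 0.05, and DESeq2 called 4. The shares of all genes in this paragraph are of edgeR calls and are no background for the other counts. With injury in females the counts were 0 members, 0% of all genes, 1 member at an unadjusted p under 0.05 and 0 by DESeq2. Between sham sexes they were 0 members, 0.432% of all genes (0.276% higher in males), 7 at an unadjusted p under 0.05 and 1 by DESeq2. Between injured sexes they were 0 members, 1.5% of all genes, 12 at an unadjusted p under 0.05 and 5 by DESeq2. Here 42 of the 44 members had the higher mean log2 value in males, with a median difference of 0.71 against 0.02 over all genes. Across the isolations, 12 of 45 members were higher in sham endothelial isolates than in sham tubules and 0 were lower, against 12.3% of all 21206 genes called either way, 10.4% higher and 1.86% lower. Each of 11 title numbers is shared by 1 tubule and 1 endothelial library of the same sex and treatment, 5 of them sham, but no label states that a number stands for 1 mouse. This fit treats the libraries as independent. With the title number as a block, 9 members were called, 8 of the 12 and Isg15 (2.49, adjusted p = 0.0374).

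Upstream of the members, the interferon ligands were nearly absent. Of 17 genes on the ligand list, which also holds the cytokines Il15 and Il18, 2 were tested in tubules and 4 in endothelial isolates. Ifna4 and the type III genes Ifnl2 and Ifnl3 had no read in any group, and the type I gene Ifnb1 reached 0.0409 ± 0.0368 CPM (SD) in injured male tubules and 0.236 ± 0.358 CPM in injured male endothelial isolates and had no read in the other 6 groups. Ifng, the type II interferon, had no read in sham tubules of either sex and 0.215 ± 0.0206 CPM in sham female endothelial isolates. Among ligand and cytokine genes of the list, Il15, which sustains natural killer and memory T cells, fell in male tubules from 13.9 ± 1.36 to 4.19 ± 2.50 CPM (log2 change -1.73 ± 0.37 (SE), adjusted p = 0.0119).

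Of 9 receptor and receptor kinase genes, 4 rose with injury in male tubules, 0 fell and 5 did not pass. Of all genes, 10.6% were called higher and 8.43% lower. The 2 chains of the type II receptor led the 4 rises. Ifngr2 rose from 18.4 ± 0.553 to 64.1 ± 28.8 CPM (log2 change 1.80 ± 0.34, adjusted p = 0.00728) and Ifngr1 from 31.1 ± 4.31 to 68.3 ± 23.7 CPM (1.13 ± 0.26, adjusted p = 0.0143). The type I receptor chain Ifnar1 and the kinase Jak2 rose by 0.72 ± 0.23 and 1.06 ± 0.34. Values of these 4 rises without injured male replicates 1 and 2 are not given. In female tubules 0 of the 9 passed (0.0109% of all genes). Between injured sexes, 4 of 9 were higher and 1 lower in males, against 12.8% and 10.5% of all genes.

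Among 13 tested STAT and IRF genes outside the members, 1 rose with injury in male tubules, against 10.6% of all genes. This was Stat3, the mediator of interleukin 6 signals, from 56.3 ± 4.95 to 263 ± 122 CPM (2.22 ± 0.29, adjusted p = 0.00148). How this rise stands without injured male replicates 1 and 2 is not given. Of 10 negative regulators, 3 rose and 1 fell with injury in male tubules (10.6% and 8.43% of all genes). These were Ptpn11, Ptpn1 and Socs3 up and Ptpn6 down.

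Of the 5 member factors, edgeR called Irf1 in 1 comparison and Irf7 in 1, while Irf8, Irf9 and Stat2 passed in none as fitted. Irf1 is a factor that both interferon types and inflammatory signals induce and that switches on MHC class I genes. It lay at 1.58, 3.13 and 3.74 CPM in sham female tubules and at 110, 70.6 and 9.86 CPM in sham male tubules. All males lay above all females, but male replicate 3 was far below the other 2. The difference was 4.49 ± 0.83 on the log2 scale (63.5 ± 50.5 against 2.81 ± 1.11 CPM, adjusted p = 0.00836), and Irf1 kept this call under each of the 21 alternatives run. In injured female tubules Irf1 was 22.9, 27.8 and 7.93 CPM, with all 3 above the sham females (2.79 ± 0.78, adjusted p = 0.18), and in injured males it was 60.1, 49.6 and 20.6 CPM. The female injury value for Irf1 passed with DESeq2 (adjusted p = 0.0263), without the low-count filter (0.0436) and with only the 2 groups compared (0.0143). Markers of the collecting duct (7 genes) summed to 223, 198 and 78.5 CPM in sham females and 978, 834 and 747 in injured females. In males they summed to 1209, 575 and 159 CPM after sham surgery and 322, 396 and 295 after injury. Like Irf1, these sums fell from replicate 1 to replicate 3 in sham males and were higher in injured than in sham females. Unlike the mean of Irf1, they were higher in injured females than in injured males. The part of these markers in the Irf1 values was not tested.

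Irf7, the factor that amplifies type I interferon production, was 0.852 to 1.02 CPM in sham female, 1.97 to 2.47 in sham male, 1.20 to 1.85 in injured female and 1.75 to 5.52 CPM in injured male tubules. With edgeR none of the 4 tubule comparisons called it, while DESeq2 called Irf7 higher in males in sham (1.26, adjusted p = 0.043) and injured tubules (1.26, 0.0119). It was higher in sham endothelial isolates than in sham tubules (1.69 ± 0.43, adjusted p = 0.0135), at 7.35 and 3.19 CPM in females and 2.21, 1.79 and 10.1 CPM in males. Sham male replicate 3 was the highest sham endothelial library and its 2 fellows were the lowest. The call was lost without sham male endothelial replicate 3, without sham female replicate 1, and with the title number as a block (adjusted p = 0.1). Irf9, the DNA-binding part of the type I complex, was 7.94 to 11.7 CPM in sham and 12.4 to 19.2 CPM in injured male tubules, groups that did not overlap (0.79 ± 0.26, adjusted p = 0.055). Irf9 passed in 7 of 21 alternatives, among them DESeq2 (0.83, adjusted p = 0.0162) and length offsets (0.92, 0.0311), and was 0.40 without injured replicates 1 and 2 (adjusted p = 0.723). Irf8, a factor of myeloid cells, passed for injury in males with DESeq2 (0.91, adjusted p = 0.0373), with length offsets (1.12, 0.0463) and without sham male replicate 3 (1.28, 0.0413). Stat2, the partner of Irf9, was 7.19 to 12.5 CPM in sham and 10.7 to 11.7 CPM in injured male tubules.

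Both sensors detect viral double-stranded RNA in the cytosol. In CPM, Ddx58 (RIG-I) gave the steadiest rise with injury among the members called in male tubules. Its levels were 14.5, 16.3 and 19.6 CPM in sham males and 42.8, 35.4 and 30.5 CPM in injured males, with a gap between the groups and all 3 injured libraries above every other tubule library. The change was 1.11 ± 0.19 (36.2 ± 6.18 against 16.8 ± 2.63 CPM, adjusted p = 0.00432), and it was 0.87 without injured male replicates 1 and 2 (adjusted p = 0.055). In females the levels were 18.4, 22.9 and 23.1 CPM in sham and 22.5, 20.8 and 17 CPM in injured tubules, which overlap. Ddx58 was also higher in injured males than in injured females (0.85 ± 0.19, adjusted p = 0.00922). The difference between injured sexes was 0.61 without those replicates (adjusted p = 0.159). With length offsets, the male injury change was 0.23 and the injured sex difference 0.42, and neither was called. Per unit of transcript length, Ddx58 was 4.99 ± 1.39 TPM (SD) in sham and 5.68 ± 0.697 TPM in injured male tubules, spreads that overlap. In male endothelial isolates it was 14.3, 15.1 and 15.3 CPM after sham surgery and 24, 34.4 and 27.6 CPM after injury, groups that did not overlap (0.94 ± 0.22, adjusted p = 0.077).

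Ifih1 (MDA5) was 3.69 to 6.20 CPM in sham and 4.95 to 7.49 CPM in injured male tubules and was called in neither sex. It was higher in sham endothelial isolates than in sham tubules (0.71 ± 0.21, adjusted p = 0.0306), at 5.89 to 9.78 CPM against 3.57 to 6.20 CPM, and was not called with the title number as a block (adjusted p = 0.116). Among 15 other tested nucleic acid sensing genes, 1 rose in injured male tubules, against 10.6% of all genes. This was Myd88, the adaptor of Toll-like receptors, from 14.2 ± 2.69 to 35.1 ± 11.1 CPM (1.31 ± 0.25, adjusted p = 0.00747). Its value without injured male replicates 1 and 2 is not given. In male endothelial isolates, 1 of 18 rose with injury, against 0.537% of all genes. This was Tmem173 (STING, the adaptor of cytosolic DNA sensing), from 1.88 ± 1.09 to 10.7 ± 2.48 CPM (2.51 ± 0.43, adjusted p = 0.03).

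Of the 16 antiviral effectors tested in tubules, 1 rose with injury in males (10.6% of all genes) and 0 in females (0.0109%). Between sham sexes 0 differed (5.8% of all genes either way), and 2 were higher in injured males than in injured females (12.8%). Counts this small do not show whether the effectors moved together. Rsad2 (viperin), which makes a chain-terminating nucleotide, was the member with the largest called rise on injury. It lay at 9.28, 4.33 and 2.2 CPM in sham males and at 132, 125 and 2.84 CPM in injured males. Replicates 1 and 2 were far above every other tubule library and replicate 3 was inside the sham range. The change was 4.03 ± 1.03 (86.4 ± 72.5 against 5.27 ± 3.63 CPM, adjusted p = 0.0231), but -0.88 without replicates 1 and 2. Against injured females it was higher by 3.76 ± 1.02 (adjusted p = 0.0226), and the value was -1.16 without those replicates. In endothelial isolates Rsad2 was 6.67, 126 and 8.52 CPM in injured males, 3.24, 3.06 and 28.7 in sham males, 18.6 and 17.2 in sham females and 5.66, 8.44 and 17.1 CPM in injured females.

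Oasl1, a regulator of Irf7 translation, followed the same 3 libraries. Its levels were 11.2, 12.3 and 0.71 CPM in injured male tubules, 1.17, 11.8 and 1.29 CPM in injured male endothelial isolates, and at most 1.1 CPM in every sham library. The difference between injured males and injured females in tubules was 4.81 ± 1.31 (8.08 ± 6.41 against 0.286 ± 0.16 CPM, adjusted p = 0.0236), and 1.31 without replicates 1 and 2 (adjusted p = 0.842). Ifit1, which binds foreign RNA ends, was 7.2, 7.54 and 1.15 CPM in injured and 1.6, 0.786 and 0.202 CPM in sham male tubules (2.61 ± 1.01, adjusted p = 0.088). Isg15, a ubiquitin-like modifier, was 4.4, 5.23 and 1.19 CPM in injured and 0.839, 0.476 and 1.04 CPM in sham male tubules (2.20 ± 0.94, adjusted p = 0.12). Ifit1 passed with DESeq2 (adjusted p = 0.0154) and Isg15 likewise (0.0288).

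Some effectors were at ordinary levels in the libraries where Rsad2 was high. Ifi44 was 1.05 and 1.24 CPM in injured male tubule replicates 1 and 2 and 1.92 CPM in injured male endothelial replicate 2, low in its range of 0.809 to 6.41 CPM in tubules and of up to 14.4 CPM in endothelial isolates. Oas1a was 0.154 and 0.904 CPM in those tubule libraries and Usp18, a brake on interferon signalling, 0.771 and 0.476 CPM, inside their sham ranges. Neutrophil markers (8 genes) summed to 33.3 and 20.1 CPM in the same tubule replicates 1 and 2, 4.82 CPM in replicate 3 and 1.20 to 3.87 CPM in the 9 other tubule libraries. In endothelial isolates they summed to 120 CPM in injured male replicate 2 and 2.73 to 14.9 CPM elsewhere. None of the 8 markers was at 0 in the injured males, while 1 to 5 were at 0 in each other tubule library. General leukocyte markers (5 genes) summed to 13.1 and 10.8 CPM in the same tubule replicates 1 and 2. Injured female tubules had 10.8, 13.5 and 9.69 CPM of them. In endothelial isolates they summed to 161 CPM in injured male replicate 2 and 8.50 to 61.4 CPM elsewhere. The part of both marker sets in the member values was not tested.

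Against sham tubules, 6 of 18 effectors were higher in sham endothelial isolates and 0 lower (10.4% and 1.86% of all genes). The 6 were Ifit2, Ifit3, Oas1a, Oasl2, Bst2 and Xaf1. Ifit2, an inhibitor of translation, was 18 and 15.4 CPM in female and 9.3, 8.3 and 28.3 CPM in male endothelial isolates, against 1.02, 2.16 and 2.31 CPM in female and 12.1, 3.14 and 3.34 CPM in male tubules (2.12 ± 0.44, adjusted p = 0.00284). Ifit3 differed by 2.17 ± 0.48 (adjusted p = 0.00513), Oasl2 by 2.82 ± 0.62 (0.00443) and Xaf1, a promoter of apoptosis, by 2.19 ± 0.45 (0.00295). These 4 kept the call under each of the 32 alternatives run. Bst2 (tetherin), which holds budding virus at the cell surface, differed by 0.88 ± 0.25 (adjusted p = 0.027), and both it and Oas1a lost the call without sham female endothelial replicate 1 or sham male endothelial replicate 3, and with the title number as a block (adjusted p = 0.0915 for Bst2 and 0.0974 for Oas1a). The male isolates were uneven. The 10 endothelial markers summed to 509, 519 and 1954 CPM in sham male replicates 1 to 3 and to 2138 and 915 CPM in the sham females, and 5 general leukocyte markers to 8.54, 8.51 and 61.4 CPM and to 34.6 and 21.2 CPM. Their part in these differences was not tested.

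**Figure D4:**
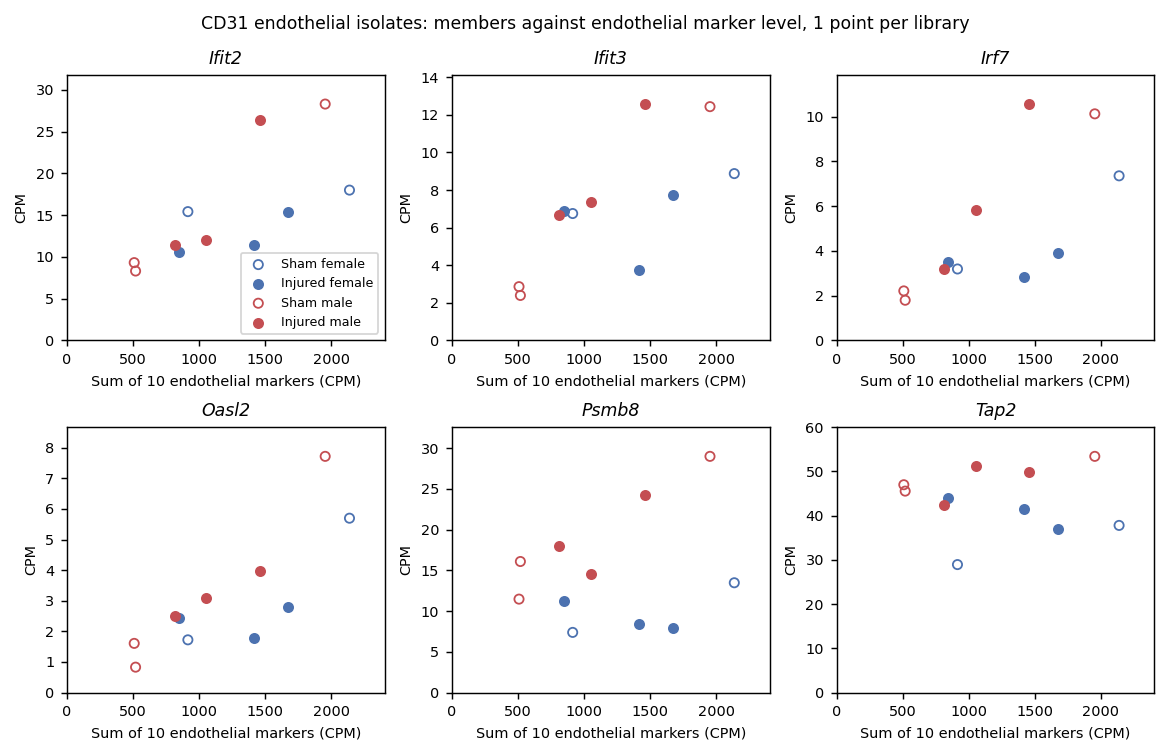
Level of 6 members called higher in sham endothelial isolates than in sham tubules (y axis, CPM) against the summed level of 10 endothelial markers (x axis, CPM), 1 point per endothelial library. Sham male replicates 1 and 2, at 509 and 519 CPM of endothelial markers, are the lowest 2 libraries for Ifit2, Ifit3, Irf7 and Oasl2, while Tap2 there, at 47 and 45.6 CPM, is above both sham females.

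Of 52 other genes listed here as interferon-induced, 47 were tested in tubules. Whether each of them answers interferon in these cells was not tested. Among these 7 rose and 0 fell with injury in males, 0 passed in females, 5 were higher in sham males than sham females and 10 in injured males than injured females. In the same order, the shares of all genes called higher were 10.6%, 0.0109%, 3.24% and 12.8%. By p, Apobec3, Tor3a, Ifitm2 and Isg20l2 came first among the male injury rises, at 1.497 ± 0.33, 1.96 ± 0.46, 1.20 ± 0.31 and 0.77 ± 0.20, while by size Slfn2 did (2.63 ± 0.84, adjusted p = 0.0493). How these rises stand without injured male replicates 1 and 2 is not given. Between sham sexes the lowest p-values were those of Ly6e, a surface protein that restricts viral entry, at 433 ± 91.7 CPM in sham males against 37.6 ± 4.3 CPM in sham females (3.53 ± 0.46, adjusted p = 0.000939), and Cxcl10, a T cell chemoattractant, at 14.2 ± 8.52 and 0.487 ± 0.44 CPM (4.83 ± 0.83, adjusted p = 0.00526). Gbp8 differed by 3.99 ± 0.99 (adjusted p = 0.0366). Against sham tubules, 19 of 52 were higher in sham endothelial isolates and 0 lower (10.4% and 1.86% of all genes). The lowest p-values were those of Ifitm3 (2.49 ± 0.37, adjusted p = 0.000211) and Parp12 (1.38 ± 0.22, 0.000443). The largest difference was that of Apol9b (4.29 ± 1.12, 0.0167).

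The interferon-induced GTPases coat and break open vacuoles that hold pathogens. In male tubules 2 of 10 rose with injury and 1 fell, against 10.6% and 8.43% of all genes. Irgm1, a regulator of autophagy and of the other GTPases, was 58, 36.9 and 74.6 CPM in sham males and 283, 250 and 41.4 CPM in injured males. Replicates 1 and 2 lay above every other tubule library and replicate 3 inside the sham range (1.76 ± 0.52, adjusted p = 0.0378, and -0.44 without those 2). Injured male endothelial replicate 2 had 215 CPM, against 31.1 to 46.5 CPM in the other 10 endothelial libraries. Between injured sexes Irgm1 differed by 2.33 ± 0.53 (adjusted p = 0.0112), and by 0.12 without those 2 libraries.

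Igtp (Irgm3) went the other way. Its promoter holds an ISRE match at nearly the same distance as that of Irgm1, and also a GAS match, which the Irgm1 window lacks. Irgm2, Gbp5 and Gbp7 also held both elements and were not called with injury in males. Whether the elements bear on the direction was not tested. Igtp lay at 24.5, 16.6 and 60.2 CPM in sham males and 16.6, 13.6 and 13.6 CPM in injured males. There the highest injured and the lowest sham library were nearly level without overlapping (-1.21 ± 0.36, adjusted p = 0.0394). It was -1.30 without injured replicates 1 and 2 (adjusted p = 0.338) but -0.50 without sham male replicate 3, the high sham library (adjusted p = 0.126), and the call was lost in 14 of 21 alternatives. In sham females it was 13.2 to 13.9 CPM and in injured females 9.50 to 11.0 CPM. In male endothelial isolates Igtp was 24.1, 37 and 25.3 CPM after sham surgery and 18.7, 18.7 and 13.2 CPM after injury (-0.77 ± 0.24, adjusted p = 0.16). The annotated span of Igtp (chr11:58199556-58207591) overlaps that of Irgm2 (chr11:58199618-58222782), so their reads may have been split between them.

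Sham male tubule replicate 3 was high in GTPases of this kind. Iigp1 was 40.3 CPM there and 4.81 and 3.07 CPM in replicates 1 and 2, Gbp2 was 13.3 against 4.35 and 2.4 CPM, Gbp4 5.81 against 1.30 and 1.26 CPM, and Irgm2 31.7 against 18.7 and 10 CPM. Irf1 was lowest in that library, so the factor and these GTPases were high in different sham males. Iigp1 was higher in sham males than in sham females, at 1.95, 1.28 and 1.35 CPM, with all males above all females (3.40 ± 0.81, adjusted p = 0.0312). Without sham male replicate 3 the difference was 1.37 (adjusted p = 0.0443), and 7 of 22 alternatives lost the call.

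Gbp3, a guanylate-binding protein, was 5.03, 4.45 and 8.32 CPM in sham males and 43.7, 34 and 6.75 CPM in injured males (2.25 ± 0.63, adjusted p = 0.0323, and 0.20 without injured replicates 1 and 2). Sham females had 8.32, 15.9 and 25.1 CPM. Gbp2 and Gbp5 were higher in injured males than in injured females. Gbp2 was 14.1, 9.47 and 3.70 CPM against 2.16, 2.66 and 0.836 CPM (2.27 ± 0.68, adjusted p = 0.0341), with all males above all females. The difference was 0.98 without the 2 libraries, and the call was lost in 9 of 21 alternatives. Gbp5, which assembles the inflammasome, was 4.24, 3.14 and 2.13 CPM against 0.468, 0.903 and 0.279 CPM (2.52 ± 0.58, adjusted p = 0.0118), and 1.95 without the 2 libraries (adjusted p = 0.237).

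Gvin1, a very large GTPase, showed the widest sex difference among the members. No read of it was found in any of the 3 sham female tubule libraries, against 20.5, 3.29 and 19.4 CPM in sham males, which is at least 532.3-fold higher in males with a floor of 3 counts for the 3 libraries together (0.0270 CPM). The test gave an adjusted p of 0.00102, kept under each of the 22 alternatives run. Injured female tubules had 2.62, 5.13 and 3.52 CPM, at least 138.9-fold above sham females, with an adjusted p of 0.057. Injured males had 26.7, 12.5 and 7.37 CPM, overlapping the sham males. The sex difference in the tubule injury response was -10.20 ± 1.74 (adjusted p = 0.0339), the only member called among 43 in that comparison, against 0.855% of all genes (0.381% higher and 0.474% lower). Endothelial isolates of sham females held 21.2 and 14.2 CPM and of sham males 10.4, 25.8 and 40.2 CPM, and Gvin1 was the 1 GTPase of 10 called higher in sham endothelial isolates than in sham tubules (adjusted p = 7.8e-05). Gvin1 lies in a cluster of near-identical copies, and with 7 copies summed, sham females had 5.16, 7.79 and 10.4 CPM and sham males 27.9, 17.2 and 31.9 CPM. The summed sex difference was 1.72 ± 0.35 (adjusted p = 0.0135) and the summed sex difference in the injury response -0.01 ± 0.47 (adjusted p = 0.996), so the value of the single gene is uncertain.

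**Figure D5:**
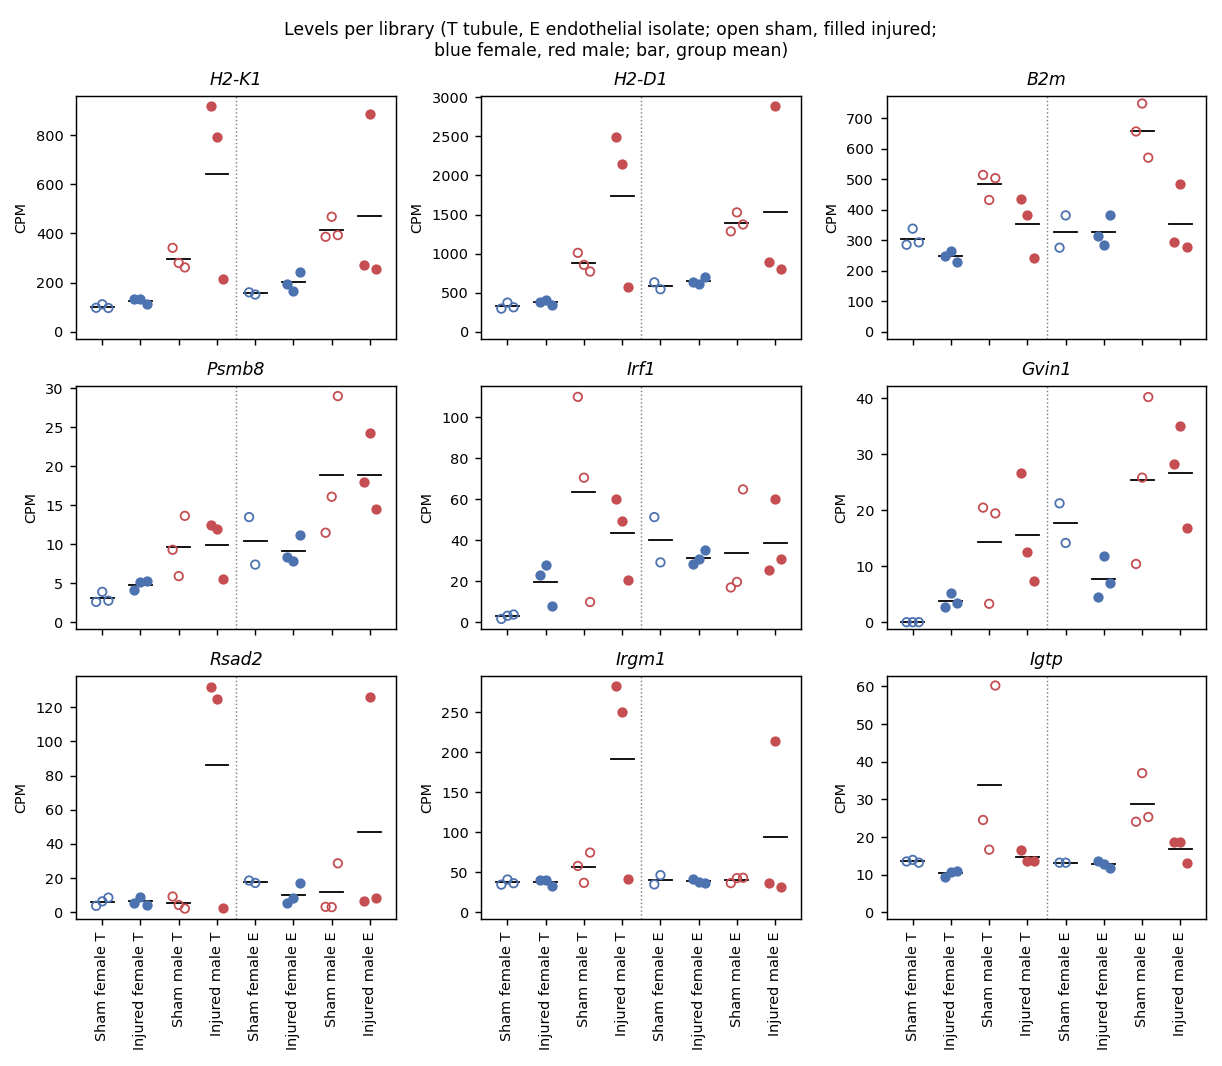
CPM (linear y axis) of 9 members in each library of the 8 groups (x axis, T tubule and E endothelial isolate), open for sham and filled for injured, blue for female and red for male, with a bar at the group mean. H2-K1 and H2-D1 are higher in each male tubule library than in every female one, and the injured male groups split into high libraries (919 and 792 CPM of H2-K1 in tubules) and lower ones (214 CPM).

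MHC class I displays peptides from inside the cell to CD8+ T cells. Of its 10 members, 4 were higher in sham male than in sham female tubules, 5 in injured male than in injured female tubules, and 0 were lower in either. The shares of all genes called higher in males were 3.24% and 12.8%. All 10 had the higher log2 mean in males in both comparisons, with medians of 1.34 and 0.97. Tapbp, H2-K1, Psmb9, Tap1, Psmb8, Tap2 and H2-D1 lie together on chromosome 17 between 33915899 and 35267499 (GRCm38, GENCODE M21), while B2m lies on chromosome 2 (122147686 to 122153083). FVB mice carry other alleles of this region than the C57BL/6J reference, and reads of H2-K1 and H2-D1 can be shared with near copies.

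The heavy chain H2-K1 was 98.1, 112 and 97.3 CPM in sham females, 134, 135 and 114 CPM in injured females, 342, 280 and 262 CPM in sham males, and 919, 792 and 214 CPM in injured males. Every male library lay above every female library. The sex difference was 1.52 ± 0.39 after sham surgery (295 ± 41.7 against 103 ± 8.43 CPM, adjusted p = 0.0425) and 2.33 ± 0.40 after injury (642 ± 376 against 128 ± 12.1 CPM, adjusted p = 0.00312). Without injured male replicates 1 and 2 these were 1.53 and 0.75. The injured difference kept its call under each of the 22 alternatives, while the sham call was lost in 11 of the 22. The injury change in males was 1.12 ± 0.39 (adjusted p = 0.062), and -0.45 without replicates 1 and 2, since replicate 3 lay below all sham males. With 15 class I genes summed, the sex differences were 1.30 ± 0.39 (adjusted p = 0.0819) after sham surgery and 2.14 ± 0.40 (adjusted p = 0.00474) after injury.

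H2-D1, the other classical heavy chain, had the same pattern. It was 298, 375 and 315 CPM in sham females, 381, 405 and 344 CPM in injured females, 1011, 857 and 772 CPM in sham males, and 2493, 2146 and 575 CPM in injured males. All males again lay above all females. The sex difference was 1.42 ± 0.39 after sham surgery (adjusted p = 0.06) and 2.21 ± 0.40 after injury (adjusted p = 0.00423). The injured difference of H2-D1 was 0.62 without replicates 1 and 2, and its call was lost in 1 of 21 alternatives. The sham difference stayed at 1.42 without them. The male injury change was 0.98 ± 0.39 (adjusted p = 0.095), and -0.60 without those replicates. DESeq2 called the male injury change of H2-K1 (1.17, adjusted p = 0.0155) and of H2-D1 (1.03, 0.0357).

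B2m, the light chain that all class I molecules need, was not called by edgeR with injury in either sex of either isolation. In tubules it was 515, 432 and 504 CPM in sham males and 434, 382 and 244 CPM in injured males, against 286, 338 and 294 CPM in sham and 250, 266 and 231 CPM in injured females. Sham males lay above all females (0.66 ± 0.19, adjusted p = 0.066), and this difference was called in 5 of 21 alternatives. Injured males overlapped sham females. The male injury change without replicates 1 and 2 was -0.98 (adjusted p = 0.00755), beside negative values for H2-K1 and H2-D1 in the same fit. In male endothelial isolates B2m was 657, 749 and 571 CPM after sham surgery and 294, 485 and 278 CPM after injury, with no overlap (-0.90 ± 0.26, adjusted p = 0.13), and without injured male endothelial replicate 2 this fall was called (-1.20, adjusted p = 0.0313).

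Among the genes that supply peptides, Tap1, Tap2 and Psmb8 were called between sham sexes, and Psmb10 with injury in males. Whether 1 effect was larger than the other was not tested. Tap2, a chain of the peptide transporter of the endoplasmic reticulum, was 19, 20.6 and 20.2 CPM in sham females and 32.1, 34.4 and 37.6 CPM in sham males, with a gap wider than the spread in either group (0.80 ± 0.13, adjusted p = 0.00364). With length offsets this difference was 0.65 (adjusted p = 0.179). Tap1, its partner, was 2.07, 3.36 and 2.39 CPM in sham females and 9.79, 5.76 and 13.1 CPM in sham males (1.87 ± 0.47, adjusted p = 0.0396). This sham call was lost in 10 of 21 alternatives. In injured tubules Tap1 was 20.5, 17 and 5.97 CPM in males and 4.9, 4.98 and 2.51 CPM in females (1.81 ± 0.46, adjusted p = 0.0186), and 0.54 without injured male replicates 1 and 2. Tapbp (tapasin), which loads peptides onto the heavy chain, was 136, 121 and 71 CPM in injured males and 62.4, 65.1 and 49.3 CPM in injured females (0.89 ± 0.21, adjusted p = 0.014), and 0.27 without those replicates.

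Psmb8, Psmb9 and Psmb10 are the catalytic subunits that interferon places in the immunoproteasome. Psmb8 was 2.6, 3.89 and 2.75 CPM in sham females and 9.28, 5.9 and 13.6 CPM in sham males, without overlap (1.64 ± 0.37, adjusted p = 0.0246). Injured males had 12.4, 11.9 and 5.47 CPM. Psmb10 rose with injury in males, from 7.19, 5.88 and 11.4 CPM to 17.7, 15.8 and 12.9 CPM (0.92 ± 0.26, adjusted p = 0.0337), where the lowest injured library was above the highest sham one. It was 0.67 without injured replicates 1 and 2 (adjusted p = 0.471), and the call was lost in 11 of 21 alternatives. Between injured sexes Psmb10 differed by 0.88 ± 0.26 (adjusted p = 0.0335), and by 0.62 without those replicates (adjusted p = 0.459). Psmb9 was 0 to 2.65 CPM in sham females and 3.05 to 4.55 CPM in sham males and was not called. Nlrc5, the coactivator of class I promoters, was 0 to 0.829 CPM in sham females, 0.905 to 3.51 CPM in sham males and 1.06 to 1.77 CPM in injured males, and edgeR called it in no comparison. DESeq2 called Nlrc5 between injured endothelial sexes (2.39, adjusted p = 0.0226). In injured male endothelial replicate 2 Nlrc5 was 7 CPM, against 0.472 to 4.01 CPM in the other endothelial libraries.

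In endothelial isolates the class I heavy chains were ordered by sex as in tubules. H2-K1 was 161 and 152 CPM in sham females, 387, 468 and 393 CPM in sham males, 196, 167 and 245 CPM in injured females and 274, 884 and 255 CPM in injured males, and H2-D1 was 634 and 545, then 1285, 1528 and 1373, then 632, 607 and 702, then 889, 2890 and 809 CPM. In each comparison of the sexes all male libraries lay above all female libraries for both genes. The sham differences were 1.41 ± 0.48 for H2-K1 (adjusted p = 0.49) and 1.24 ± 0.48 for H2-D1 (adjusted p = 0.59), and the injured differences 1.22 ± 0.42 (0.21) and 1.24 ± 0.41 (0.20). Injured male endothelial replicate 2 is not in the sham comparison. Without it the sham differences kept their size and were called, at 1.41 (adjusted p = 0.013) and 1.24 (adjusted p = 0.0171). The injured differences were then 0.39 for both genes (adjusted p = 0.494 and 0.441). Against sham tubules, Psmb8 (1.24 ± 0.29, adjusted p = 0.00641), Psmb10 (0.86 ± 0.19, adjusted p = 0.00536) and Tap2 (0.48 ± 0.11, adjusted p = 0.00644) were higher in sham endothelial isolates, while 7 of the 10 class I members were not called.

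Among 17 tested class I and class Ib chains outside the members, 2 rose with injury in male tubules (10.6% of all genes). These were H2-K2 (2.04 ± 0.34, adjusted p = 0.00432) and H2-Q4 (1.80 ± 0.51, adjusted p = 0.0337). Between injured sexes 8 were higher in males (12.8% of all genes) and 0 in females. None of the 17 passed between sham sexes (5.8% of all genes) or with injury in females (0.0109%). H2-Q4 was 185 ± 130 CPM in injured males, 53.1 ± 4.93 in sham males, 25.6 ± 2.54 in injured females and 22.7 ± 3.22 CPM in sham females. Values without injured male replicates 1 and 2 are not given for these chains. Of 16 further loading and proteasome genes, Rfx5 and Rfxap, which bind MHC promoters, rose and the chaperone Canx fell with injury in male tubules. The shares of all genes there were 10.6% higher and 8.43% lower.

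The sex difference in the response to injury was tested directly. Apart from Gvin1, no member passed in tubules, where 8 had an unadjusted p under 0.05 and DESeq2 called 5. Neither count has a share of all genes beside it. In endothelial isolates 0 passed, against 0% of all genes, with 5 at an unadjusted p under 0.05 and 0 by DESeq2. Injury responses of endothelial isolates and tubules also differed for 0 of 45 members, against 0% of all genes, with 3 at an unadjusted p under 0.05 and 1 by DESeq2. Of the 6 members called with injury in males, the direct test gave Ddx58 1.20 (adjusted p = 0.0585), Gbp3 3.20 (0.0991), Rsad2 4.02 (0.148), Irgm1 1.73 (0.216), Igtp -0.83 (0.377) and Psmb10 0.34 (0.628) with edgeR. DESeq2 called Ddx58 (1.27, adjusted p = 0.00133), Gbp3 (3.28, 0.00306) and Rsad2 (4.10, 0.0488) besides Gvin1 and Irf1. Without the low-count filter edgeR called Ddx58 and Gbp3 (adjusted p = 0.0433 and 0.0273), and it called Ddx58 also with technical library 3B alone (0.0378) or without sham male replicate 3 (0.0475). Without injured male replicate 3 it called Rsad2, Gbp3, Ddx58 and Irgm1, with Tap2, H2-K1 and H2-D1. Irgm1 was called in that 1 setting, and Psmb10 and Igtp in none.

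In the authors' deposited tables of the same comparisons, 9 members were past an adjusted p of 0.05 as higher and 1 as lower with injury in male tubules, against 22.8% of genes with a value. The authors' deposited table for injury in female tubules gave 2 higher and 0 lower, against 2.5%. Between sexes, the authors' deposited tables gave 12 higher in sham male tubules (8.74% of genes either way) and 18 in injured male tubules (24.9%), and 0 lower in both. In endothelial isolates, the authors' deposited tables gave 6 higher in injured males than in injured females (5.82% of genes either way), namely Gbp3, Gvin1, Ifit1, Isg20, Oasl1 and Tap1. They gave 2 higher with injury in males (5.3%), Gbp3 and Isg20, 1 higher in sham males than in sham females (2.02%), Igtp, and 0 with injury in females (0.316%), with 0 lower in each of these authors' deposited tables.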

How the data were processed

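RNA was prepared with a poly-A workflow, per the labels' protocols. Per the submitters' processing notes, the authors used Salmon 0.13.1 and build GRCm38, and the deposited files hold estimated counts, not normalized, and TPM for every transcript. In the 8 tables of the authors' own comparisons, which per the submitters' processing notes come from DESeq2, the deposited columns are log2 fold changes and p-values, raw and adjusted. Here, transcript estimates were added up for each gene and rounded. Sham male tubule replicate 3 is the sum of 2 technical libraries. edgeR 4.0.16 (R 4.3.3) was fitted to each isolation with all its groups, after TMM scaling and filterByExpr (count 10, total 15), by its quasi-likelihood F-test. Adjusted p-values are Benjamini-Hochberg over every gene in the fit (18369 in tubules, 19910 in endothelial isolates, 21206 in the joint fit), with a call at an adjusted p under 0.05. An SE is the log2 change over the square root of F. Levels in the 2 isolations were normalized separately, and only the joint fit compares them. Floors of 3 counts cover counting error only.

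The alternatives tried were RLE scaling, no filter on low counts, DESeq2 1.42.0, offsets for transcript length, fits of the compared groups alone, a replicate block, each technical library by itself, near copies summed, and each library left out in turn. Leaving out injured male tubule replicates 1 and 2 together (and injured male endothelial replicate 2 in the joint fit) was added after seeing the data. The members and the gene lists were chosen with earlier results of these data known. By the naming rule, values by library are given for called members with at least 5 CPM in the higher group (up to 4 per role and comparison) and for 15 set members, and up to 4 genes of each other list. Members named outside that rule, among them Ifi44, Usp18, Oas1a, Gbp4, Gbp5, Irgm2 and Xaf1, and the other genes Slfn2, Gbp8 and Apol9b were chosen after their values were seen. The fits were also run on simulated counts with a single spread for all genes of an isolation. Those counts held no libraries that stood apart, and the outcome is not given here. Promoter letters are from RefSeq.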

Additional observations from a re-analysis of the deposited data

Results flagged for a closer look

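The sex difference in the tubule injury response of Gvin1 passed its test, with a value of -10.2 on the log2 scale (male change minus female change, adjusted p = 0.0339). The value rests on sham female tubules, where the gene had no read in any of 3 libraries. Over the alternatives it ranged from -11.28 to -0.01, the last with 7 near copies summed (adjusted p = 0.996). The male injury change was 0.11 and the female one 10.31, both fitted values that depend on the prior count where a group is at 0.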

How the results depend on the processing

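The count of members called moved by over 1.5 times in these cases. The share of all genes called under each alternative is not given, so these counts have no background beside them. For injury in male tubules (6 called), DESeq2 called 17, the 2 groups alone 0, and the fit without injured male tubule replicates 1 and 2 called 1. Leaving out single libraries gave 1 to 17. For injury in female tubules (0 called), no low-count filter gave 2, DESeq2 3, the 2 groups alone 4 and the fit without those replicates 1, with 0 to 2 on leaving out single libraries. Between sham tubules of the sexes (7), DESeq2 gave 15, the replicate block 4 and the fit without those replicates 13, with a range of 3 (without sham female tubule replicate 1 or 3) to 14 (without injured male tubule replicate 3). Between injured tubules (11), DESeq2 gave 26, the 2 groups alone 7 and the fit without those replicates 1, with a range of 3 (without injured female tubule replicate 3) to 23 (without injured male tubule replicate 3). For the sex difference in the tubule response (1), no filter gave 3, DESeq2 5, the replicate block 0 and technical library 3B alone 2, with a range of 0 to 8.

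In endothelial isolates, no filter gave 1 and DESeq2 4 for injury in males (0), with a range of 0 to 1, DESeq2 gave 1 between sham sexes (0), with a range of 0 to 2, and no filter gave 3 and DESeq2 5 between injured sexes (0). For sham endothelial isolates against sham tubules (12), leaving out libraries gave 6 (without sham female endothelial replicate 1) to 17 (without all 3 libraries that stood apart). For the response of endothelial isolates against that of tubules (0), no filter and DESeq2 gave 1 each, Gvin1. For each of these counts, the cause was not tested.

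Without injured male tubule replicates 1 and 2, the male injury change reversed to -0.88 for Rsad2, -0.44 for Irgm1, -0.45 for H2-K1 and -0.60 for H2-D1, and the injured sex difference of Rsad2 to -1.16. Over the named members and all alternatives, 1064 values kept direction and side of the threshold, 180 lost the call, 55 gained it and 5 reversed. Deviations of samples with the same replicate number correlated from -0.38 to 0.45, so within an isolation the samples share only a number and the replicate block is no pairing from the design. Between isolations the block was the title number, whose pairs correlated from -0.73 to 0.81. With it, sham endothelial isolates against sham tubules gave 9 members in place of 12, and the response of endothelial isolates against that of tubules 0.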
